A study of Mus musculus with 8 samples.

Results

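Genes of cytotoxic lymphocytes, 9 in number (Gzma, Gzmb, Gzmk, Prf1, Nkg7, Fasl, Ifng, Klrg1 and Eomes), were followed through every labelled cell type of mouse lung grafts after lung transplantation (LTx). They were chosen by name as effector genes, and 9 of 9 were among the 17921 genes counted in 20778 cells. Cells were taken by the submitters' cell type labels. T cells were also split by their counts of Cd8a and Cd4, the coreceptors of the cytotoxic and the helper lineage. A T cell with a count of 1 or more for Cd8a and 0 for Cd4 is called a Cd8a T cell here, and the reverse a Cd4 T cell.

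Cytotoxic T cells and natural killer (NK) cells kill by releasing granules at the contact with their target. Perforin (Prf1) opens the target's membrane to granzymes, serine proteases such as Gzma, Gzmb and Gzmk, while Nkg7 is a granule membrane protein that takes part in degranulation. A second route runs through Fas ligand (Fasl), which triggers death receptors. The same cells secrete IFN-γ (Ifng), which acts on surrounding cells through its receptor. Eomes is a T-box transcription factor of effector and memory cells, and Klrg1 is an inhibitory receptor of differentiated lymphocytes.

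Each library was a 3′ single-cell RNA sequencing library (10x Genomics) of the left lung graft of 1 male mouse, taken 1 month after LTx with no immunosuppression. In the control group, B6→B6 (n = 5 mice), donor and recipient were both C57BL/6 (B6). In HLA→B6 (n = 3 mice), a model of chronic rejection, the donor carried the transgene Tg(HLA-A2.1)1Enge/J, a human HLA-A2 molecule, on the C57BL/6 background, and the recipient was again B6. A graft holds donor and recipient cells, which were not told apart here.

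The mice gave 868 to 6544 cells with median depths of 1356 to 1948 unique molecular identifiers (UMIs, counted transcript molecules) per cell. T cells numbered 5071 and NK cells 1011. Genes of the T cell receptor complex (Cd3d, Cd3e, Cd3g, Trac and Trbc2) summed to between 5717 and 9087 CPM (UMI counts of a gene relative to all UMIs of the summed cells, on the usual CPM scale) in T cells of every mouse and to at most 730 in NK cells, where 98.4% of cells had a UMI of an NK gene. B6→B6 replicate 4 stood apart: 954 of its 1470 T cells formed the submitters' cluster 7, which no other mouse had. Of these, 46.8% had a UMI of Rag1 and 50.2% of Dntt, enzymes of receptor gene rearrangement, against 0 and 14 of 4117 other T cells. Nkg7 was found in 3.46% of cluster 7 cells and Gzmk in 0 of 954, but Gzma in 5.14% (49 cells), against 97 of 4117 other T cells. T cell results are therefore given with and without cluster 7. A set of 4 libraries, those of B6→B6 replicate 1, replicate 2 and replicate 3 together with that of HLA→B6 replicate 2, were linked by cell barcodes in common (160 between B6→B6 replicate 2 and HLA→B6 replicate 2, 97.5% of these with the same label), and as an alternative 793 cells whose barcode was also found in another mouse were left out over all 8 libraries.

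The 9 genes lie on 7 chromosomes (GRCm38). Gzma (chr13:113093825-113100981) and Gzmk (chr13:113171608-113225908, a span that begins upstream of the RefSeq start used below) are neighbours on the minus strand, 70.6 kb apart. Ifng (chr10:118441046-118445892) and Prf1 (chr10:61297833-61304680) share chromosome 10. The others are Nkg7 (chr7:43437073-43438249), Klrg1 (chr6:122270596-122282882), Fasl (chr1:161780689-161788495), Eomes (chr9:118478212-118486132) and Gzmb (chr14:56258838-56262260). Promoters of 8 genes were matched by symbol in RefSeq (GRCm38.p6), each with 250 bases before the transcription start and 50 after it. The 4 below belong to the genes on which the comparison of the grafts turned. Capitals mark TCACACC or its reverse complement GGTGTGA, a motif of T-box factors such as Eomes, searched on both strands.
Nkg7, chr7:43436888-43437187, plus strand: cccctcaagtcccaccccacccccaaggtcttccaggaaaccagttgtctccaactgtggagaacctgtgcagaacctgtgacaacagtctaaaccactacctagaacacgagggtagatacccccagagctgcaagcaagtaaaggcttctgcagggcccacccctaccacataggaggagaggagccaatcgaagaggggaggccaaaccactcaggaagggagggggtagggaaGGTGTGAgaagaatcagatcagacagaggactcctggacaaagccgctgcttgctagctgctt
Gzmk, chr13:113180916-113181215, minus strand: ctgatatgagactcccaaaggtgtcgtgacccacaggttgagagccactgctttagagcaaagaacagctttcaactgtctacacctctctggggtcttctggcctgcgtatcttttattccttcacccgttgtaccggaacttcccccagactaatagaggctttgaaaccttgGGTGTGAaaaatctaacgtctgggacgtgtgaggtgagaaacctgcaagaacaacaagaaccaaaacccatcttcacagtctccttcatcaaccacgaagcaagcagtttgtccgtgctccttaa
Gzma, chr13:113100932-113101231, minus strand: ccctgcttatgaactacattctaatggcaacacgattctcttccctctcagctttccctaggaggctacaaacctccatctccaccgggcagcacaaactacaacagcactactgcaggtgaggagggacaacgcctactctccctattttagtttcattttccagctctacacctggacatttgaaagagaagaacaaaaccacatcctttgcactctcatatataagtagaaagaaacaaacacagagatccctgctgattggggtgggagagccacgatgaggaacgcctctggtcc
Ifng, chr10:118440796-118441095, plus strand: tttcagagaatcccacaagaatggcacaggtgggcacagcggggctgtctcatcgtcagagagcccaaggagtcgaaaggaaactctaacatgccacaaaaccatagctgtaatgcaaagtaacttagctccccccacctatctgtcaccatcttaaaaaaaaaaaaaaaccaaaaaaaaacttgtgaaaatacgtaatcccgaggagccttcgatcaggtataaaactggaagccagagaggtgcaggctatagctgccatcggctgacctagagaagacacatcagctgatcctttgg

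Those 7 bases stood 13 bases before the start of Nkg7 and 75 before that of Gzmk, and were in neither the Gzma nor the Ifng window. Of 32851 mouse promoters of this length 3.98% held them. The longer TCACACCT, which contains them, was in Nkg7 only (1.28% of promoters), and the core GGTGTG, contained in GGTGTGA, in Fasl, Nkg7 and Gzmk (19.0%). The AP-1 motif TGACTCA was found in Gzmb (5.20%), 58 bases before the start, and TGANTCA, which includes it, likewise in Gzmb alone (7.81%). A match is a description of these letters and not of a bound site.

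NK cells carried the highest level of 8 of the 9 genes, and T cells that of Gzmk. Levels are CPM in the summed cells of a type in each mouse, compared between types and not between genes. Gzma was at 13509 ± 1350 CPM there (SD, n = 8 mice), with a UMI in 97.5% of NK cells, and NK cells held 92.4% of all Gzma UMIs in the grafts. In T cells Gzma was at 107 ± 109 CPM, with a UMI in 2.88% of cells. NK cells likewise held 78.9% of Gzmb UMIs, 75.2% of Klrg1 UMIs and 73.6% of Prf1 UMIs. T cells, being more numerous, held more of the UMIs than NK cells for Nkg7 (55.6% against 38.7%), Ifng (59.8% against 30.1%) and Fasl (49.7% against 44.6%), although the mean CPM of each was higher in NK cells. For Eomes, NK cells held 51.2% and T cells 42.2%.

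Gzmk ran the other way. It was at 79.6 ± 74.3 CPM in T cells, which held 86.5% of its UMIs, and only 6 Gzmk UMIs were counted in 1011 NK cells (3.62 ± 4.07 CPM). For 7 genes the lowest NK cell level was above the highest T cell level of any mouse. Ifng was the exception among the genes led by NK cells, with 80.5 to 197 CPM in NK cells and 13.4 to 81.2 CPM in T cells, so these neighbours in the order met. T cells came next in the order for each of those 8 genes, and their range was clear of the type ranked next for Prf1, Nkg7 and Fasl. Below that, neighbouring types overlapped for each gene.

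**Figure D1:**
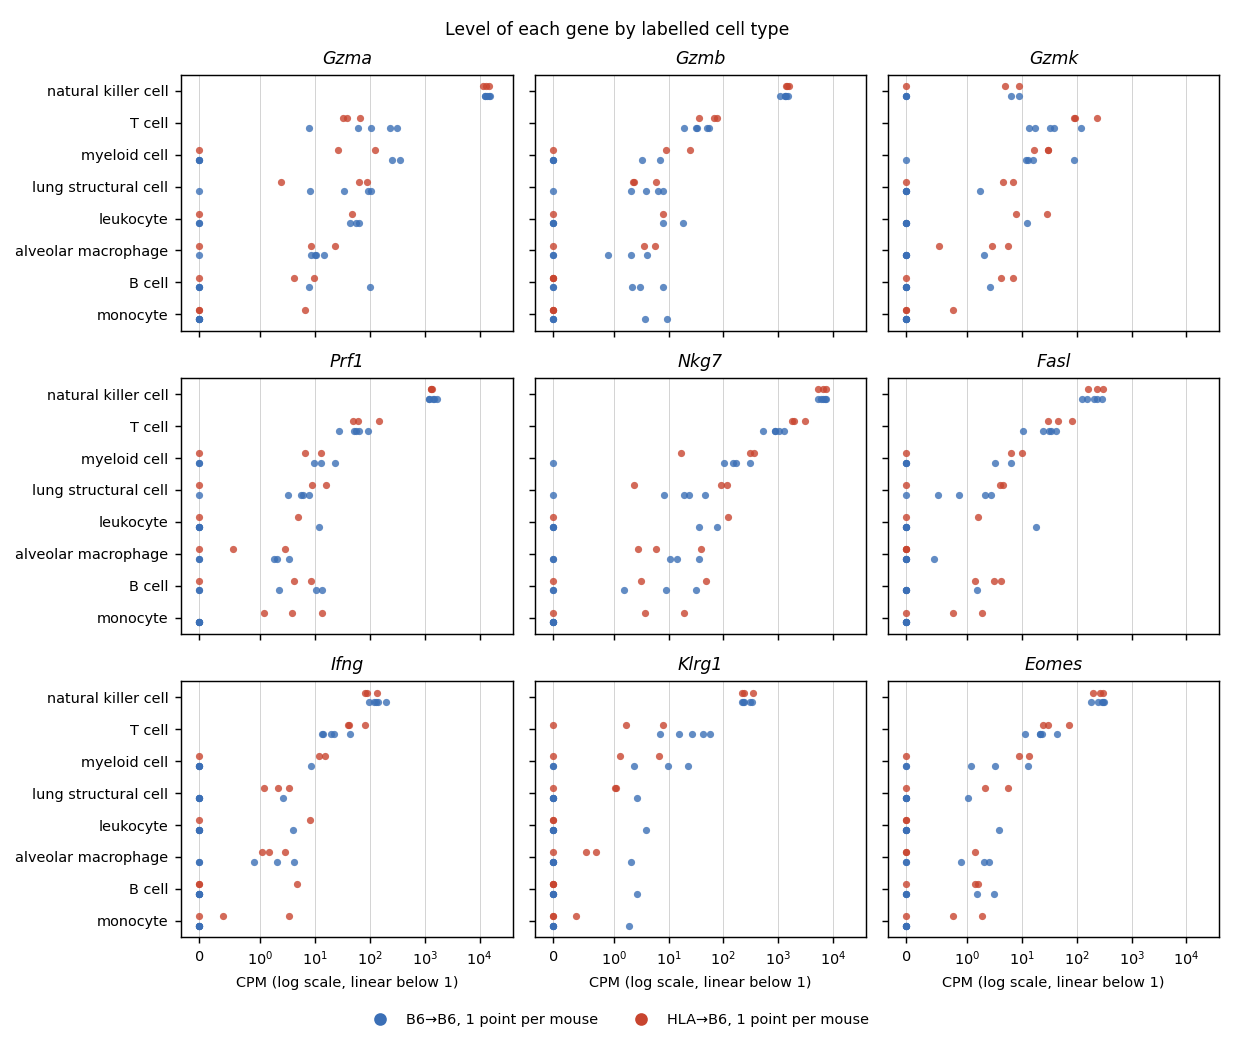
CPM of each gene (log scale, linear below 1) in 8 labelled cell types, with 1 point per mouse (blue B6→B6, red HLA→B6; mice with at least 10 cells of the type). NK cells lead in 8 panels and T cells in the Gzmk panel. The highest points of B cells are 100 CPM for Gzma and 48.0 CPM for Nkg7, and that of monocytes is 19.3 CPM for Nkg7.

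Next in the order came the cells labelled myeloid (755 cells). For Gzmk they were at 25.8 ± 27.4 CPM, for Gzma at 94.4 ± 138 CPM and for Nkg7 at 177 ± 137 CPM. Of these cells 25.3% had a UMI of a Cd3 gene and 28.7% of a cycling gene (Mki67 or Top2a). Cells with a UMI of a Cd3 gene or an NK gene held 99.3% of their Gzma UMIs and 97.9% of their Nkg7 UMIs, and cycling cells held 89.7% and 81.1%. Mast cells had 12 Gzmb UMIs, none of them in a cell with a Cd3 or NK gene, and 0 UMIs of Gzma, Gzmk and Prf1. B cells, taken as cells that should lack these transcripts (median depth 1597.5 UMIs, against 1648 in T cells), had a UMI of Nkg7 in 0.700% of cells, of Gzma in 0.612%, of Ifng in 0.0875% and of Klrg1 in 0.0437%. Gzma was in 1.76% of alveolar macrophages and 1.72% of structural cells.

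Comparing HLA→B6 with B6→B6 asks whether effector transcripts differed in lymphocytes of the mismatched grafts. Nkg7 was higher in T cells of every HLA→B6 mouse, and Gzma and Klrg1 had lower means in T cells, while none of the 9 genes passed the test in NK cells. In edgeR's quasi-likelihood test, 0 of 9 genes passed an adjusted p of 0.05 in T cells with all cells (0.0698% of 7164 genes did). Without cluster 7, 1 of 9 passed (0.422% of 7106 genes). Among Cd8a T cells 8 of 9 genes had counts enough to be tested, Klrg1 being the exception. Of these 8, 1 passed with all cells (Ifng; 0.765% of 3270 genes) and 3 without cluster 7 (Ifng, Nkg7 and Gzma; 2.74% of 3176 genes). Ifng reached the count filter there through the HLA→B6 mice alone, so its call is no support for a difference. Gzma reached the filter through the B6→B6 mice (4 of 5 above it, and 1 of 3 HLA→B6 mice), so its call is no support either.

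Nkg7 showed the clearest separation. Its level in T cells was 878, 1041, 1259, 534 and 878 CPM in B6→B6 replicates 1 to 5 and 1931, 3075 and 1751 CPM in HLA→B6 replicates 1 to 3. All HLA→B6 values were above all B6→B6 values, as was the case for 5.47% of genes in either direction. The log2 fold change was 1.25 (SE 0.25), with an adjusted p of 0.110. Without cluster 7 the fourth B6→B6 value became 968 CPM and the log2 fold change 1.07 (SE 0.18, adjusted p = 0.0166). The call without cluster 7 was lost without B6→B6 replicate 1 (adjusted p = 0.0567) or HLA→B6 replicate 2 (0.180), and with all cells a call was gained when B6→B6 replicate 4 was left out (0.0267).

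Among the T cell classes compared, Cd8a T cells had the highest Nkg7 level in every mouse. Nkg7 was at 1474, 1901, 2147, 694 and 1411 CPM in B6→B6 and at 3468, 4910 and 2707 CPM in HLA→B6, again with no overlap (5.81% of genes, and 9.6% without cluster 7). Without cluster 7 the B6→B6 values lay between 1411 and 2147 CPM, and the log2 fold change was 0.99 (SE 0.17, adjusted p = 0.00236), against 1.19 (SE 0.30, adjusted p = 0.0966) with it. This call without cluster 7 held with each further mouse left out in turn, at log2 fold changes of 0.79 to 1.12 and adjusted p of 8.27e-05 to 0.0189. Cd8a T cells with a UMI of Nkg7 had 5.41 such UMIs on average in B6→B6 without cluster 7 and 10.0 in HLA→B6. These averages pool the cells of a group at unmatched depth. HLA→B6 replicate 2, with the highest Nkg7 level, supplied 487 of the 861 Cd8a T cells of HLA→B6. In Cd4 T cells Nkg7 was lower in both groups, at 381 ± 180 CPM (SD, n = 5) and 711 ± 275 CPM (n = 3), which overlapped (adjusted p = 0.434). Only Nkg7 and Gzmk could be tested there, and 0 of these 2 passed (0.223% of 2243 genes). T cells with neither coreceptor counted had 752 ± 179 and 1354 ± 210 CPM, at an adjusted p of 0.132 (0.146% of 5486 genes passed).

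Ifng in Cd8a T cells rested on few molecules. The level was 18.8, 27.4, 7.82, 9.98 and 25.8 CPM in B6→B6 and 51.9, 126 and 42.7 CPM in HLA→B6. No HLA→B6 value fell within the B6→B6 range, and HLA→B6 replicate 2 was the highest. Behind them were 2, 6, 2, 7 and 3 UMIs in the B6→B6 mice and 27, 142 and 9 in the HLA→B6 mice. The filter kept genes at or above 42.1 CPM in 3 mice, a level that 3 of 3 HLA→B6 mice and 0 of 5 B6→B6 mice reached, so a gene tested in this way had to differ. With that limit, the log2 fold change was 2.32 (SE 0.47, adjusted p = 0.0312), and 1.88 (SE 0.42, adjusted p = 0.0213) without cluster 7. The call was lost without B6→B6 replicate 1 (adjusted p = 0.0798, and 0.0530 without cluster 7 as well), and without B6→B6 replicate 3 or 4, or HLA→B6 replicate 1 or 2, the counts were too few for Ifng to be tested. They were also too few with the barcode-sharing cells left out. With no filter, where entry did not depend on the level, Ifng passed from the same UMIs (2.30).

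Over all T cells Ifng reached 42.8, 22.3, 19.5, 13.9 and 13.4 CPM in B6→B6 and 41.7, 81.2 and 40.3 CPM in HLA→B6. Here B6→B6 replicate 1 lay inside the HLA→B6 range. The log2 fold change of 1.40 (SE 0.35) had an adjusted p of 0.225, and that of 1.14 without cluster 7 had 0.150. Cd4 T cells had 32.4 ± 26.4 CPM in B6→B6 and 46.3 ± 15.1 CPM in HLA→B6, and T cells with neither coreceptor 22.2 ± 15.9 and 33.0 ± 1.55 CPM, overlapping in each case.

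**Figure D2:**
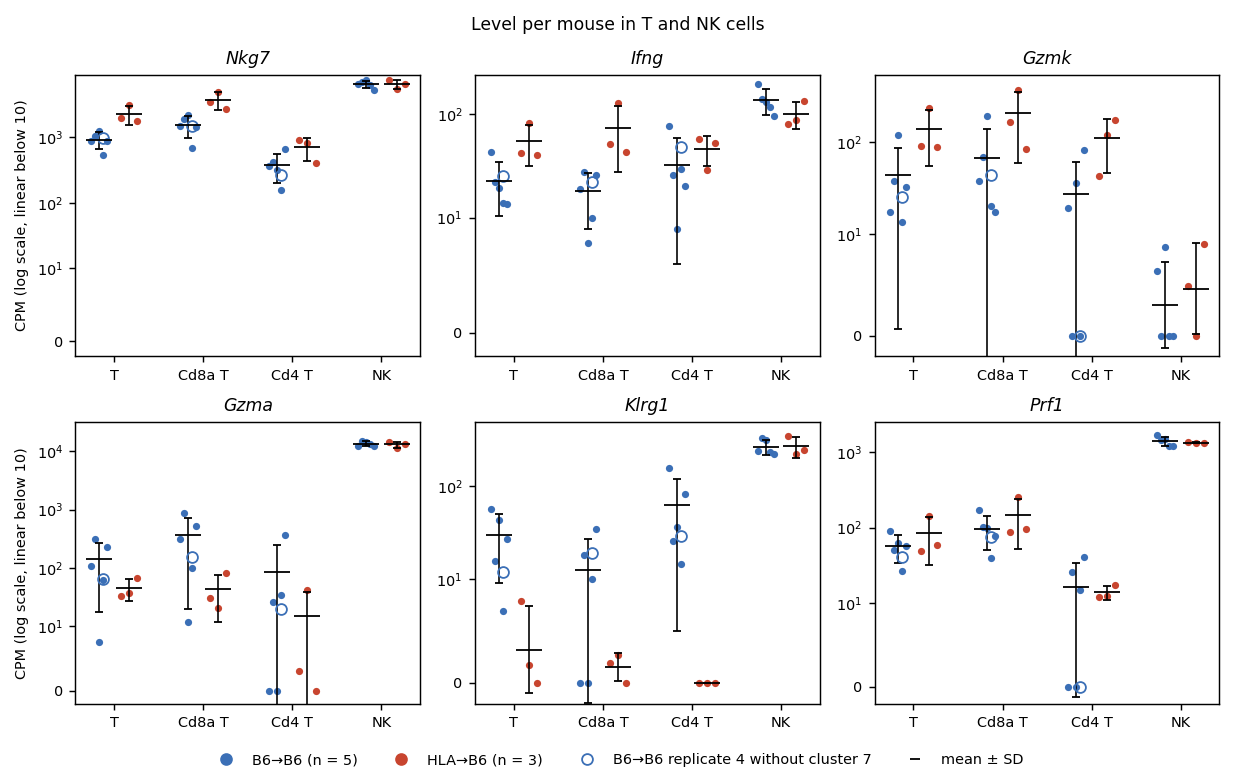
CPM (log scale, linear below 10) of 6 genes in T, Cd8a T, Cd4 T and NK cells, with 1 point per mouse, bars for mean ± SD and an open circle for B6→B6 replicate 4 without cluster 7. Nkg7 in T and Cd8a T cells and Ifng in Cd8a T cells do not overlap between the groups, Klrg1 is at 0 in Cd4 T cells of all 3 HLA→B6 mice, and each gene overlaps in NK cells.

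In Cd8a T cells the mean of Gzma was lower and that of Gzmk higher in HLA→B6, and these genes were not tested against each other. Gzma in Cd8a T cells was at 310, 862, 11.7, 99.8 and 534 CPM in B6→B6 and at 30.8, 20.5 and 80.6 CPM in HLA→B6. In B6→B6, 4 mice were above all HLA→B6 mice, and replicate 3 was below them. Gzma reached the count filter, 42.1 CPM in 3 mice, through B6→B6: 4 of 5 of these mice and 1 of 3 HLA→B6 mice were above it, with or without cluster 7. With that limit, the log2 fold change was -3.35 (SE 0.94, adjusted p = 0.150), and -3.52 (SE 0.78, adjusted p = 0.0212) without cluster 7. With all cells a call was gained without B6→B6 replicate 3 (0.0365) or replicate 4 (0.0158). The call without cluster 7 was lost without B6→B6 replicate 2 (adjusted p = 0.0534), HLA→B6 replicate 1 (0.115) or HLA→B6 replicate 2 (0.132). The difference rests on few cells with many UMIs: Gzma was found in 2, 12, 1, 24 and 5 Cd8a T cells of the B6→B6 mice (4 in replicate 4 without cluster 7) and in 7, 6 and 1 of the HLA→B6 mice, with up to 39 UMIs in a single cell. On average 1.61% of HLA→B6 Cd8a T cells had a Gzma UMI (median depth 1801.5 UMIs in Cd8a T cells), between the 0.612% of B cells and the 1.76% of alveolar macrophages, which were deeper (2791.5 UMIs). Of the Gzma UMIs in Cd8a T cells, 55.5% in B6→B6 and 58.9% in HLA→B6 were in cells with a UMI of the NK cell genes Ncr1, Klrb1c or Klre1, which made up 5.79% and 13.8% of the cells. Without cluster 7 the B6→B6 values were 58.8% of the UMIs and 11.1% of the cells. The part of cells with an NK gene in the Gzma difference of Cd8a T cells was not tested. Over all T cells Gzma was at 144 ± 126 CPM in B6→B6 and 45.1 ± 18.0 CPM in HLA→B6 (adjusted p = 0.653). T cells with neither coreceptor counted did not share the lower level (log2 fold change 0.34, SE 0.55, adjusted p = 0.997).

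Gzmk, its neighbour on chromosome 13, had the higher mean in HLA→B6. In Cd8a T cells it was at 37.6, 68.4, 192, 19.96 and 17.2 CPM in B6→B6 and at 165, 371 and 85.3 CPM in HLA→B6. B6→B6 replicate 3 lay among the HLA→B6 values and the other 4 below them. The log2 fold change of 1.56 (SE 0.58) had an adjusted p of 0.375, and that of 1.32 without cluster 7 had 0.138. Gzmk passed with the linked libraries as a block (2.09, adjusted p = 0.00852, and 1.61, 0.00201 without cluster 7) and without B6→B6 replicate 3 (2.61, 0.0367). With all cells Gzmk was above the count filter in 2 of 5 B6→B6 mice and 3 of 3 HLA→B6 mice. Entry then depended on HLA→B6, so the calls with all cells are no support for a difference. Without cluster 7, 3 of 5 B6→B6 mice were above it. The only HLA→B6 mouse of the linked set was replicate 2, which had the highest Gzmk level. Among all T cells the values were 17.1, 37.96, 119, 13.4 and 32.2 CPM against 91.4, 236 and 89.0 CPM (log2 fold change 1.59, SE 0.57, adjusted p = 0.491), with the same replicate 3 inside the HLA→B6 range. Cd4 T cells had 27.4 ± 33.8 CPM in B6→B6 and 112 ± 66.2 CPM in HLA→B6, from 9 and 53 UMIs (log2 fold change 2.41, SE 0.82, adjusted p = 0.400).

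Gzmb and Prf1 overlapped between the groups in every T cell class. Gzmb in Cd8a T cells was at 52.5 ± 38.4 CPM in B6→B6 and 104.7 ± 39.2 CPM in HLA→B6 (log2 fold change 1.04, SE 0.42, adjusted p = 0.425, and 0.0454 without B6→B6 replicate 2). Prf1 there was at 169, 100, 97.8, 39.9 and 77.5 CPM in B6→B6 and at 88.4, 253 and 94.8 CPM in HLA→B6, so only HLA→B6 replicate 2 was above the control range (log2 fold change 0.71, SE 0.42, adjusted p = 0.701). Fasl in Cd8a T cells was at 18.8, 45.6, 27.4, 5.70 and 25.8 CPM in B6→B6 and 63.4, 118 and 23.7 CPM in HLA→B6 (log2 fold change 1.76, SE 0.55, adjusted p = 0.194, and 0.0790 without cluster 7), with HLA→B6 replicate 3 inside the control range. Fasl passed with the linked libraries as a block (1.958, adjusted p = 0.0242, and 1.66, 0.00340 without cluster 7). With or without cluster 7, Fasl was above the count filter in 1 of 5 B6→B6 mice and 2 of 3 HLA→B6 mice. Its entry depended on HLA→B6, so these calls are no support for a difference. Eomes was at 38.03 ± 21.9 CPM and 65.1 ± 39.2 CPM (adjusted p = 0.691).

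Klrg1 had its lowest T cell levels in HLA→B6. The values over all T cells were 57.0, 15.7, 43.4, 6.93 and 26.8 CPM in B6→B6 and 7.92, 1.70 and 0 CPM in HLA→B6, with B6→B6 replicate 4 inside the HLA→B6 range. Without cluster 7 that replicate was at 12.1 CPM and the groups no longer overlapped (6.6% of genes). The log2 fold change was -2.80 (SE 0.78, adjusted p = 0.298), and -2.91 (SE 0.61, adjusted p = 0.0590) without cluster 7. Klrg1 reached the count filter through B6→B6 alone (4 of 5 mice, and 0 of 3 HLA→B6 mice). With all cells the gene passed in DESeq2 (adjusted p = 0.0131) and, by edgeR, without B6→B6 replicate 4 (0.0422). Cd4 T cells of B6→B6 had 8, 4, 4, 3 and 4 Klrg1 UMIs in 8 cells in all, and those of HLA→B6 had 0 in 355 cells, so the groups did not overlap (5.62% of genes). The pooled B6→B6 level was 8.41-fold a floor of 3 counts over the HLA→B6 group, counting error only. That floor takes UMIs as independent counts, which those of 1 cell are not, so it sets no lower bound on the fold. Klrg1 could not be tested in Cd4 or Cd8a T cells. Of the Klrg1 UMIs in T cells 80.0% were in cells with a Cd3 UMI, against 98.1% for Nkg7. Genes of innate lymphoid cells (Gata3, Il1rl1 and Areg) summed to 96.6 to 248 CPM in T cells of B6→B6 and 85.0 to 128 CPM in HLA→B6, and those of γδ T cells (Trdc and Tcrg-C1) to 61.7 to 656 and 117 to 163 CPM. Their part in the Klrg1 difference was not tested.

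NK cells had 0 of 8 tested genes past the threshold in edgeR, with Gzmk too sparse to test, and 0.0% of 2987 genes passed at all (97 at an unadjusted p under 0.05, and 0 adjusted by DESeq2). The groups overlapped for 9 of 9 genes (2.81% of genes did not overlap). The fold changes were small. Nkg7 was at 6483 ± 799 CPM in B6→B6 and 6434 ± 1002 CPM in HLA→B6, a log2 difference of 0.02 with a 95% interval of -0.24 to 0.28. Gzma was at 13677 ± 1353 and 13229 ± 1591 CPM (log2 fold change -0.02, interval -0.26 to 0.21), and Prf1 at 1391 ± 201 and 1336 ± 35.3 CPM (-0.03, interval -0.31 to 0.25). Ifng had the furthest value from 0, with 197, 139, 131, 117 and 96.6 CPM in B6→B6 and 80.5, 87.8 and 135 CPM in HLA→B6 (log2 fold change -0.51, SE 0.26, adjusted p = 0.998). In HLA→B6, 2 of the 3 values were below the control range. Klrg1, the gene with the lowest T cell values in HLA→B6, was at 265 ± 49.6 and 269 ± 67.7 CPM in NK cells.

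The effect of the graft on T cells and on NK cells was compared within mice by an interaction term. Of 8 tested genes 3 passed (0.418% of 4311 genes), and their calls remained without cluster 7 (0.631% of 4281 genes). For Ifng the effect in T cells exceeded that in NK cells by 1.86 on the log2 scale (SE 0.37, adjusted p = 0.0210, and 0.0238 without cluster 7). For Nkg7 the excess was 1.27 (SE 0.28, adjusted p = 0.0423, and 0.00207), while for Klrg1 the difference was -2.67 (SE 0.60, adjusted p = 0.0449, and 0.00180). The 3 mice whose absence ended the Ifng call were B6→B6 replicate 2 (adjusted p = 0.0602), HLA→B6 replicate 1 (0.0884) and HLA→B6 replicate 2 (0.390). The Nkg7 call was lost without B6→B6 replicate 1, 2 or 3 or any HLA→B6 replicate, at up to 0.723, and the Klrg1 call without any mouse other than B6→B6 replicate 4, at up to 0.422.

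**Figure D3:**
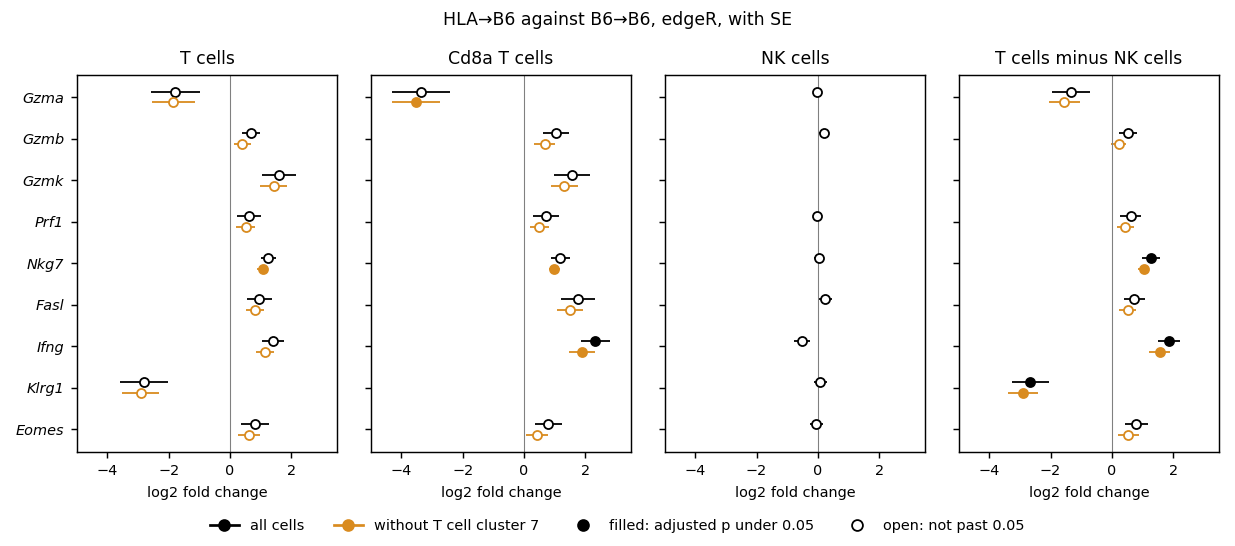
log2 fold change of HLA→B6 against B6→B6 ± SE by edgeR in T, Cd8a T and NK cells, and the T cell effect minus the NK cell effect, with all cells (black) and without T cell cluster 7 (orange). Filled points have an adjusted p under 0.05, and genes too sparse to test have no point. The NK points all lie within 0.51 of 0, while Ifng in Cd8a T cells is at 2.32 and Gzma at -3.35.

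Cd8a and Cd4 T cells of the same mice were compared with the mouse as a block. Of the 9 genes only Nkg7 and Gzmk passed the count filter, Gzmk with 3 of 8 Cd4 and 5 of 8 Cd8a libraries above it and 0 UMIs in Cd4 T cells of B6→B6 replicates 2 and 4. Both were higher in Cd8a T cells (12.8% of 2606 genes passed in either direction). The log2 difference was 2.40 for Nkg7 (SE 0.13, adjusted p = 3.34e-15) and 1.69 for Gzmk (SE 0.30, adjusted p = 0.000114). Without cluster 7 the values were 2.45 for Nkg7 and 1.69 for Gzmk (17.1% of 2275 genes passed). Prf1 entered there through 8 of 8 Cd8a and 0 of 8 Cd4 libraries, so no test of it is given. The Gzmk call was lost in DESeq2 (adjusted p = 0.137) and without the mouse as a block (0.209), and Gzmk was too sparse to test without HLA→B6 replicate 2 or 3. Of all genes 184 were higher and 149 lower in Cd8a T cells, but 116 and 359 with library totals in place of TMM, which moved the median of all genes to -0.20. Under that scaling Nkg7 (2.18) and Gzmk (1.47) stayed higher. The effect of the graft itself did not pass as different between the classes for either gene. That difference was 0.22 for Nkg7 (95% interval -0.29 to 0.73) and -0.74 for Gzmk (-2.10 to 0.61), with 0.422% of 2606 genes past the threshold.

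The share of T cells in the Cd8a class was 22.3%, 23.8%, 23.0%, 36.7% and 24.5% in B6→B6 and 25.2%, 43.1% and 36.8% in HLA→B6. B6→B6 replicate 4 lay inside the HLA→B6 range, and the difference of the means, 8.96 percentage points, had an exact permutation p of 0.0714 (two-sided, 56 splits, 0.0357 being the smallest these mice allow). With cluster 7 left out replicate 4 fell to 23.8%, the groups no longer overlapped and the difference was 11.5 points (exact permutation p = 0.0357). Among the 4 libraries linked by shared barcodes the difference was 20.1 points with or without cluster 7, and among the other 4 it was 0.384 points with all cells and 6.83 points without cluster 7. Taken over Cd8a and Cd4 T cells alone, the mean Cd8a share was 64.4% in B6→B6 and 71.2% in HLA→B6 (exact permutation p = 0.393). Without cluster 7 the B6→B6 mean was 62.7% (exact permutation p = 0.214). There HLA→B6 replicate 1, at 58.3%, lay inside the B6→B6 range of 55.1% to 69.1%.

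The share of cells with a UMI was taken at a fixed depth of 1000 UMIs per cell, with shallower cells left out. The median depth of T cells was 973.5 to 2600 UMIs in B6→B6 mice and 1519 to 1976 in HLA→B6 mice, and 4 of 36 pairs of gene and class did not overlap between the groups. Over all genes 5.46% of pairs tested by edgeR and 3.52% of pairs with any UMI did not. Nkg7 was found in 34.7% ± 7.20 of T cells in B6→B6 (SD, n = 5) and 55.3% ± 7.07 in HLA→B6 (n = 3), with an exact permutation p of 0.0357, against 40.4% and 62.2% without thinning. In Cd8a T cells the Nkg7 share overlapped, at 60.0% ± 17.5 in B6→B6 and 80.6% ± 5.29 in HLA→B6 (exact permutation p = 0.0714). Without cluster 7 the B6→B6 share was 65.2% ± 7.72 and the groups still overlapped (exact permutation p = 0.0714). Before thinning it was 87.2% there, against 90.1% in HLA→B6. Ifng was found in 2.21% ± 1.23 and 6.16% ± 3.02 of Cd8a T cells (exact permutation p = 0.0357, with 3.77% and 11.4% before thinning). That difference was 7.63 points in the linked libraries and 1.86 in the others. Klrg1 was found in 2.25% ± 0.964 of T cells in B6→B6 and 0.292% ± 0.393 in HLA→B6 (exact permutation p = 0.0357, with 3.27% and 0.438% before thinning, where the groups overlapped and p was 0.0714, as it was at 500 UMIs). In Cd4 T cells the shares were 3.08% ± 2.04 and 0%. Adjusted over the 9 genes of a class, none of these p-values was under 0.05. Gzmk in Cd8a T cells overlapped, at 6.20% ± 4.58 and 15.3% ± 10.1 (exact permutation p = 0.143), as did Prf1 at 9.71% ± 4.51 and 11.2% ± 5.66 (exact permutation p = 0.786).

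Within Cd8a T cells most of the effector genes were found more often in cells that also had Gzmk. Leaving out cluster 7, 284 of 1239 Cd8a T cells had a UMI of Gzmk, at a median depth of 1947.5 UMIs against 2267 in the rest. At 1000 UMIs, Nkg7 was found in 98.4% of the former and 71.2% of the latter, Prf1 in 22.7% and 9.03%, Gzmb in 20.7% and 2.92%, Eomes in 19.2% and 3.26% and Ifng in 12.0% and 4.09%. By CPM within a mouse, the first 4 were higher beside Gzmk in each of 5 mice that could be compared, and Ifng in 4 of them. Gzma differed from these, with 4.36% and 1.90% and a higher CPM in 1 of 5 mice. Ccr7, a homing receptor of naive and central memory T cells, was found in 1.01% of cells with Gzmk and 21.3% of those without. Beside Ifng, found in 133 of the 1239 cells, Gzmk was in 32.6% against 14.4% of the rest, Nkg7 in 96.5% and 75.4% and Fasl in 18.2% and 5.93%, while Gzma was in 2.38% and 2.50%. In the 2 mice that could be compared, the CPM of Gzmk, Nkg7 and Fasl was higher beside Ifng in both and that of Gzma in neither. Cells of 1 mouse share a library and HLA→B6 replicate 2 supplied 191 of the 284 cells, so these shares are descriptions.

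**Figure D4:**
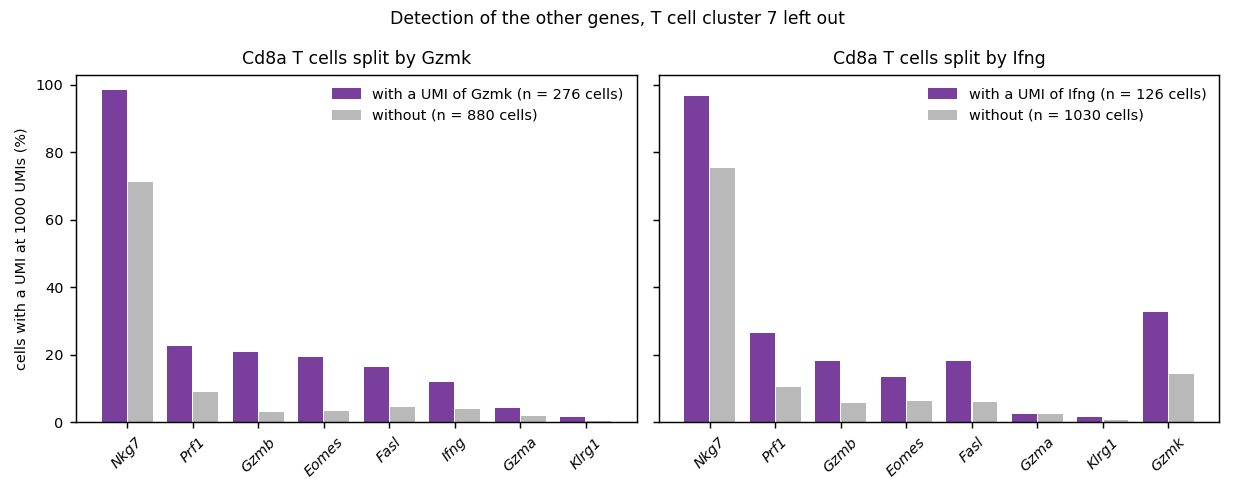
Share of Cd8a T cells (cluster 7 left out, pooled over mice, cells with at least 1000 UMIs) with a UMI of each other gene at 1000 UMIs, for cells with (purple) and without (grey) a UMI of Gzmk, left, or Ifng, right. The purple bar is the taller for Nkg7, Prf1, Gzmb, Eomes and Fasl in both panels, and Gzma is below 5% throughout.

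Other genes of the pathway were read from lists written with earlier results of these data known. Of 18 further granule genes, 8 could be tested in Cd8a T cells and 0 passed, with a median log2 fold change of 0.50, against -0.02 over all genes tested. Among 10 death ligands and cytokines, 2 of 6 tested rose in Cd8a T cells, the chemokines Ccl3 (log2 fold change 4.23, SE 0.68, adjusted p = 0.00636) and Ccl4 (3.21, SE 0.45, adjusted p = 0.00286). Ccl3 reached the count filter through HLA→B6 alone (0 of 5 B6→B6 mice). Ccl5 joined them without cluster 7 (0.81, SE 0.20, adjusted p = 0.0450). Among 12 regulators of effector and memory state, 1 of 8 tested passed in Cd8a T cells, Id2, which favours effector cells (1.35, SE 0.28, adjusted p = 0.0379). Without cluster 7, Ccr7 (-1.52, SE 0.22), Tcf7 (-1.003, SE 0.20) and Lef1 (-0.99, SE 0.19), genes of naive and memory T cells, also fell, at adjusted p of 0.000728, 0.0111 and 0.00813. The part of the lower Ccr7, Tcf7 and Lef1 levels in the Nkg7, Ifng and Gzma differences was not tested. Of 11 genes upstream of Ifng, such as the receptors for IL-12 and IL-18, 6 were tested in Cd8a T cells and 0 passed.

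In all T cells without cluster 7 the same lists gave Stx11, a membrane fusion protein of granule release (1.53, SE 0.26, adjusted p = 0.0166), the death ligand Tnfsf10 (2.34, SE 0.38, adjusted p = 0.0156), Ccl3 (3.33, SE 0.66, adjusted p = 0.0434) and Ccl4 (2.60, SE 0.45, adjusted p = 0.0196). Tnfsf10 reached the count filter through HLA→B6 alone. Ccl3 was above it in 1 of 5 B6→B6 mice and Stx11 in 2 of 5, each with 3 of 3 HLA→B6 mice. Entry of these genes depended on HLA→B6, so their calls are no support for a difference. With cluster 7 kept, 0 genes of any of the lists passed. None passed in NK cells, and the T cell effect exceeded the NK cell effect for Ccl3 (4.11, SE 0.62), Ccl4 (3.004, SE 0.47), Stx11 (2.17, SE 0.44) and Ctsw, cathepsin W, a protease of cytotoxic cells (1.17, SE 0.21).

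Genes that IFN-γ induces were read in the cells that could receive it, from a list of 19, several of which also answer type I interferon. In alveolar macrophages 9 of the 19 could be tested and 8 rose, where 12.3% of 5798 genes passed in either direction. None of the 9 effector genes could be tested in these cells. The median log2 fold change of those tested was 2.18, against -0.03 for all genes, but transcripts near 0 in B6→B6 reached the count filter through HLA→B6 alone. The largest were the guanylate binding proteins Gbp3 (3.29, SE 0.68), Gbp2 (2.45, SE 0.66) and Gbp8 (2.18, SE 0.39) and the GTPase Irgm1 (2.25, SE 0.47). Over all 19 genes, 5 were higher in every HLA→B6 mouse than in any B6→B6 mouse (5.14% of genes tested). Structural cells had 18 tested and 10 risen (0.604% of 8109 genes), with Gbp3 at 2.84 (SE 0.44), Iigp1 at 2.31 (SE 0.40), Gbp2 at 2.27 (SE 0.32) and Tgtp1 at 2.14 (SE 0.41). HLA→B6 replicate 3 stood below the other HLA→B6 mice there, with Gbp2 at 316, 639 and 115 CPM in the 3 mice against 29.9 to 113 CPM in B6→B6, and 2 of 19 genes did not overlap (0.432% of genes tested). In monocytes 0 of 7 tested passed (0.023% of 4352 genes), in cells labelled myeloid 0 of 7 (0.0% of 4395 genes), in B cells 0 of 12 (0.117% of 6001 genes), in T cells 0 of 19 and in NK cells 0 of 6, with medians of 1.00, 1.64, 0.67, 0.54 and 0.08. The receptor subunit Ifngr2 rose in alveolar macrophages (1.05, SE 0.23, adjusted p = 0.0178), where its level was 69.2 to 138 CPM in B6→B6 and 142 to 171 CPM in HLA→B6. In T cells its level was 24.9 to 48.5 CPM in B6→B6 and 6.37 to 16.4 CPM in HLA→B6, lower without overlap, at an adjusted p of 0.161 (log2 fold change -1.62, SE 0.36).

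The genes closest in pattern to each of the 9 were ranked by Pearson's r of log2(CPM + 10) over 69 sums of a cell type and mouse. These points share libraries and cell types, so r is a description. Genes of NK cells led for most. Gzma was closest to Klrb1c (r = 0.937), Klre1 and Ncr1, Gzmb to Klra9 (0.959), Klrc2 and Klrb1c, and Klrg1 to Klrb1c (0.965), Klre1 and Tbx21. Prf1 was closest to Eomes (0.977), Samd3 and Klrb1c, Fasl to Samd3 (0.978), Eomes and Klrc1, Eomes to Samd3 (0.982), Klre1 and Klra7, and Ifng to Klrc1 (0.977), Eomes and Fasl. For Nkg7 they were Ctsw (0.939), Il2rb and Klrc1. Gzmk stood apart, with Tnfrsf4 (0.828), Pdcd1 (0.815), both receptors of activated T cells, and 1700021A07Rik, and with Nkg7 the nearest of the other 8 genes at 0.499.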

How the data were processed

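Per the labels and the study's methods, the authors mapped 10x Genomics 3′ reads with Cell Ranger to mm10 (GRCm38; versions not given in the sources used here), left out barcodes under 200 UMIs and genes in fewer than 3 cells, removed free RNA with SoupX, clustered with Seurat and labelled cells with clustifyr from Tabula Muris. The deposited values are whole UMI counts per gene and cell with no normalization, and the authors' cell type labels were used as deposited. Each cell was given to a mouse by the deposited sample name, since the cell name prefixes of the HLA→B6 mice carry other numbers. There were 0 unused columns of values.

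Counts were summed per mouse and cell type (at least 10 cells) and fitted with edgeR 4.0.16 (quasi-likelihood test, TMM, filterByExpr with a minimum count of 10) in R 4.3.3, HLA→B6 against B6→B6, with p-values adjusted by Benjamini and Hochberg over all genes tested and a threshold of 0.05. The T cell effect minus the NK cell effect, and Cd8a against Cd4 T cells, were fitted with the mouse as a block. DESeq2 1.42.0, no filter on low counts, no TMM, replicate and library blocks and leaving out each mouse were alternatives. The fits within T, NK, Cd8a and Cd4 T cells and of Cd8a against Cd4 were tested on simulated counts with known changes, and the T minus NK term was not. Single values were compared by a two-sided exact permutation test that doubles the smaller tail, over 56 splits. Shares were taken after thinning to 1000 UMIs per cell (500 as an alternative). Scrublet through scanpy 1.11.5, at an expected rate of 0.06, called 258 doublets (1.24%), kept except in an alternative. Other steps used scipy 1.17.1, pandas 2.3.3, matplotlib 3.10.9 and numpy 2.4.6 (Python 3.11.15).

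The 9 genes and all lists were chosen with earlier results of these data known. Genes outside the 9 were named where they passed the test within a list (at most 4 per comparison, the largest changes first) or were the 3 nearest in pattern to each. Rag1 and Dntt, the settings without T cell cluster 7, and leaving out each mouse from those and from the T minus NK fit were chosen after seeing the data. Total counts ran from 1669076 to 12445769 UMIs per mouse. Each library is 1 mouse, and counting intervals and floors cover counting error only.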

Additional observations from a re-analysis of the deposited data

Results flagged for a closer look

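In 36 groups of 5 B6→B6 mice, 4 values stood apart from the other mice by Dixon's test at the 95% level (a gap above 0.71 of the range). The usual rate of about 1 in 20 is for independent, normally distributed values. These groups share cells and some hold few UMIs, so 4 of 36 cannot be set against that rate. Gzmk in T cells was at 119 CPM in replicate 3, next to 37.96 CPM. Gzmb in Cd8a T cells was at 119 CPM in replicate 2, next to 46.9 CPM. Gzma in Cd4 T cells was at 366 CPM in replicate 5, next to 34.3 CPM, from 18 UMIs in 1 cell. Gzmb in Cd4 T cells was at 20.4 CPM in replicate 5, from 1 UMI, with 0 in the other B6→B6 mice.

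The group effect differed between T cells and NK cells by the interaction test of edgeR for Klrg1 (-2.67 on the log2 scale, SE 0.60), Nkg7 (1.27, SE 0.28) and Ifng (1.86, SE 0.37).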

How the results depend on the processing

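Counts of the 9 genes past the threshold moved with the processing. In T cells (0 genes), DESeq2 gave 2 (Klrg1, Nkg7), no filter on low counts 3, the linked libraries as a block 2 (Nkg7, Ifng), leaving out cluster 7 1, and both together 3 (Nkg7, Gzmk, Fasl). Leaving out each mouse gave 0 to 2. In Cd8a T cells (1 gene, Ifng), DESeq2 gave 2, no filter 5, no TMM 2, the linked block 4 (Ifng, Nkg7, Gzmk, Fasl), leaving out barcode-sharing cells 0, leaving out cluster 7 3, Cd8a or Cd8b1 without cluster 7 2, and cluster 7 out with the linked block 5 (Gzma besides), and leaving out each mouse gave 0 to 2 with cluster 7 and 1 to 5 without it. In Cd4 T cells (0) no filter gave 3. Between Cd8a and Cd4 T cells (2), DESeq2 gave 1, no filter 7, no mouse block 1 and leaving out each mouse 1 to 3, and the difference between T and NK cells (3) ranged from 0 to 3. In NK cells 0 of the 9 passed in each setting run. Over all genes, DESeq2 called 37 (25 higher, 12 lower) in T cells, 40 in Cd8a and 11 in Cd4 T cells, against 5 (5 higher), 25 and 5, and no filter called 61, 246 and 68, and 38 in NK cells against 0. The cause was not tested.

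Replicate numbers are shared between the groups, but same-numbered mice did not deviate together (correlations 0.0828, 0.146 and -0.228 over 6680 genes). With the replicate block, 2 genes passed in T cells (Klrg1, Nkg7) and 3 in Cd8a T cells (Nkg7, Ifng, Gzma), and in NK cells Fasl (-0.061), Klrg1 (-0.0347) and Nkg7 (-0.074) changed sign.

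Other sign changes were Nkg7 in NK cells with no TMM (-0.00516) or without Cd3-positive cells (-0.00372), Prf1 in NK cells with the linked block (0.0198) and the Prf1 share of Cd8a T cells before thinning (-0.803 points). Leaving out each mouse, with or without cluster 7, the log2 fold change ranged in T cells from -0.214 to 0.915 for Prf1 and -0.143 to 1.26 for Eomes, and in Cd8a T cells from -0.222 to 0.947 for Prf1 and -0.287 to 1.01 for Eomes, the negative values being those without HLA→B6 replicate 2. In NK cells it ranged from -0.172 to 0.209 for Klrg1, -0.0753 to 0.123 for Nkg7, -0.0783 to 0.0249 for Prf1, -0.197 to 0.153 for Eomes and -0.0947 to 0.0541 for Gzma. The Cd8a minus Cd4 difference for Nkg7 ranged from -0.0139 to 0.522. The Prf1 share differences ranged from -0.768 to 2.16 points in T cells and -1.75 to 3.46 in Cd8a T cells, the number of shares without overlap from 4 to 9 (9 where the third mouse of either group was left out), and the Cd8a share difference from 4.93 to 13.9 points (11.5 without cluster 7). Few UMIs limit Klrg1, Ifng and Gzma in single T cell classes.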
